A study of Oryza sativa with 12 samples.

Results

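SPX1 (LOC4341465) and PHR3 (LOC4328249) are genes of the phosphate signalling pathway of rice. They were read here in shoots of the genotypes K83 and Jijing88 with and without alkali salts. The members are all probe sets that the array annotation assigns to either gene by symbol or synonym, and there are 2 of them, 1 for each gene, among 57258 probe sets tested, or 2 of 17905 genes read. SPX1 was chosen by its measured difference between alkali and control in Jijing88, and PHR3 by that in K83. Those 2 differences are therefore given as a description, with no test. Tests are given for the same measure in the other genotype, whose arrays that choice did not use. Their standard errors come from all 12 arrays, those of the choosing genotype included. Differences of SPX1 and PHR3 between the genotypes contain arrays used in the choice and are also given with no test.

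The 12 Affymetrix arrays form 4 groups of 3 arrays that the labels call biological replicates, namely K83 with alkali salts, K83 control, Jijing88 with alkali salts and Jijing88 control. Seedlings of 7 days, raised hydroponically, were moved to new medium with 50 mM alkali salts or without them, and shoots were collected 24 h later. Each array held RNA from a pool of 10 shoots, and the labels do not say whether the pools of a group were grown separately, so p-values measure the spread between these pools. What the salts were, their pH and the phosphate in the medium are not in the labels, which describe the genotypes by name only. No group received a neutral salt, so effects of alkalinity, salt and osmotic stress cannot be told apart. Values are log2 signals, on which a difference of 1 is a doubling. The array medians lay between 5.12 and 5.18, and a group mean below 5.154, the median of these, is called close to background. Arrays give no read depth, and 3 per group limits the precision.

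Plants sense phosphate through proteins with an SPX domain. When phosphate is ample, inositol pyrophosphates bind this domain, and the SPX protein holds transcription factors of the PHR family away from DNA. When phosphate is scarce, the PHR factors are released and switch on genes of phosphate uptake, transport and recycling, SPX genes among them, which closes a feedback loop. In rice, SPX1 is a nuclear inhibitor of PHR2, and its transcript is a common marker of phosphate starvation. PHR3 is a relative of PHR1 and PHR2 that acts in part redundantly with them.

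The arrays held the transcripts of leaf tissue. Of 10 leaf markers, 9 were above the array medians in every group, RBCS1 being close to background. The mean signal over these markers was 11.50 to 11.58 in K83 alkali, 11.63 to 11.66 in K83 control, 11.56 to 11.66 in Jijing88 alkali and 11.38 to 11.51 in Jijing88 control arrays. Over 6 root markers the mean was 5.56 to 5.59 in K83 alkali, 5.78 to 6.03 in K83 control, 5.69 to 5.89 in Jijing88 alkali and 5.81 to 5.89 in Jijing88 control arrays. Of the root markers Lsi2 and NRT2.2 were close to background in all groups, while Lsi1 had group means of 8.90 to 9.50. SHR1 and SCR1, which pattern the root and also act in leaves, were lower under alkali in K83, with means of 5.68 and 6.03 in K83 alkali and 6.33 and 6.60 in K83 control (limma adjusted p = 0.00194 and 0.0123). Jijing88 alkali replicates 1, 2 and 3 read 9.68, 7.87 and 9.44 for 25S ribosomal RNA, against 7.85 to 8.53 in the arrays of the other groups. Actin probe sets at the 3′ end exceeded those at the 5′ end, a measure of RNA integrity, by 2.096 to 2.25 in K83 alkali and 1.81 to 2.07 in K83 control arrays, and 1.92 to 2.41 in Jijing88 alkali and 2.12 to 2.44 in Jijing88 control arrays. Over 6 seed markers the group ranges ran from 6.200 to 6.265 in K83 alkali, 6.11 to 6.24 in K83 control, 6.31 to 6.36 in Jijing88 alkali and 6.21 to 6.36 in Jijing88 control arrays. The seed markers were not uniformly low, since GLB had group means of 10.399 to 11.005 and GLUA-2 of 8.77 to 9.17. Of 4 meristem markers CDC2Os-3, a cell division kinase gene, was lower under alkali in K83 (9.02 against 9.68, limma adjusted p = 0.0214). Among leaf markers PORA, a chlorophyll synthesis gene, was lower under alkali in K83 (9.53 against 10.10, limma adjusted p = 0.0175) and higher in Jijing88 (10.08 against 8.97, limma adjusted p = 0.000152). The light-harvesting genes CAB2R and LHCP and the seed marker GLUA-2 were higher under alkali in Jijing88 (limma adjusted p = 0.00455, 0.00225 and 0.0227), and the remaining markers of the 4 lists were not called under alkali in either genotype. The part of these differences in the results below was not tested. In bulk shoots, fewer cells that express a gene and less of its RNA per cell cannot be told apart.

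The SPX1 signal was higher under alkali in both genotypes and higher in K83 than in Jijing88 in both media. SPX1 read 11.30, 10.99 and 11.19 in K83 alkali replicates 1, 2 and 3, against 10.62, 10.76 and 10.41 in K83 control. In Jijing88 alkali it was 10.38, 10.74 and 10.79, against 9.97, 9.75 and 10.01 in Jijing88 control. In each genotype the lowest alkali array lay above the highest control array. The group means were 11.16 ± 0.16 in K83 alkali, 10.60 ± 0.18 in K83 control, 10.64 ± 0.22 in Jijing88 alkali and 9.91 ± 0.14 in Jijing88 control (SD, n = 3). In order, K83 alkali was highest and Jijing88 control lowest, and between them Jijing88 alkali and K83 control covered nearly the same range and had no order beyond their spread.

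**Figure D1:**
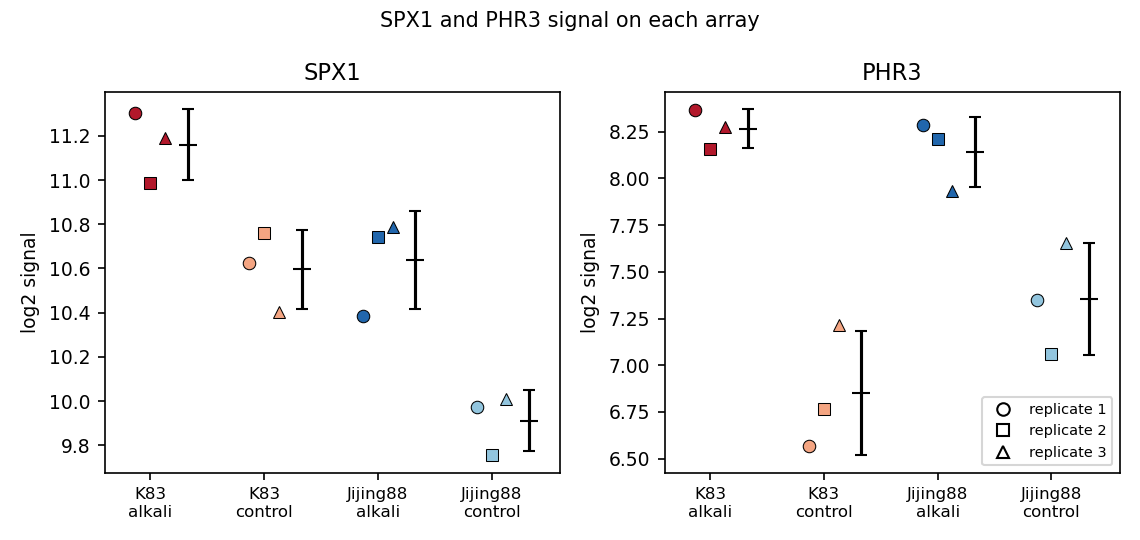
Log2 signal of SPX1 (left) and PHR3 (right) on each of the 12 arrays, with symbols for the replicate and, beside them, the group mean and SD (n = 3). SPX1 is shifted upward in K83 in both media, whereas the PHR3 means are 8.27 and 8.14 in the alkali groups of K83 and Jijing88, and 6.85 and 7.35 in their control groups.

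In K83, whose arrays had no part in the choice of SPX1, the log2 difference between alkali and control was 0.56 with a standard error of 0.13, a 1.48-fold rise that passed the test (limma adjusted p = 0.0227). With the K83 arrays fitted alone, the limma adjusted p was 0.0290. Over all 17905 genes, 5.04% were called higher under alkali in K83, 7.82% lower and 12.9% in either direction. The call held in 8 of the 12 fits that left out 1 array and was lost in the other 4. Leaving out a Jijing88 array does not change the K83 difference itself. Of the fits that left out a K83 array, the call held only without alkali replicate 2 or control replicate 2. Without K83 alkali replicate 1 the difference was 0.49 (limma adjusted p = 0.0924), and without K83 alkali replicate 3 it was 0.55 (limma adjusted p = 0.0812). Without K83 control replicate 1 it was 0.58 (limma adjusted p = 0.0560), and without K83 control replicate 3 it was 0.47 (limma adjusted p = 0.0836). In Jijing88, the contrast that chose the gene, the difference was 0.72 with a standard error of 0.13, or 1.65-fold. The K83 response minus the Jijing88 response was -0.16 with a standard error of 0.19, a difference that was not tested because it contains the contrast that chose SPX1.

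Between the genotypes, each K83 control array read higher for SPX1 than each Jijing88 control array, by 0.68 on the log2 scale in the mean (standard error 0.13) or 1.61-fold. Under alkali each K83 array was above each Jijing88 array, by 0.52 in the mean (standard error 0.13) or 1.44-fold. Both differences are descriptions with no test, because they contain the Jijing88 arrays that chose SPX1. They are differences of signal from 1 probe set, and whether it reads both genotypes alike was not tested. With any 1 array left out they lay between 0.60 and 0.78 in control medium and between 0.39 and 0.61 under alkali.

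PHR3 was higher under alkali in both genotypes and had overlapping ranges in the alkali groups of both. PHR3 read, in the same order of replicates, 8.37, 8.16 and 8.28 in K83 alkali, against 6.57, 6.76 and 7.22 in K83 control. In Jijing88 alkali it was 8.29, 8.21 and 7.93, against 7.35, 7.06 and 7.66 in Jijing88 control. The alkali arrays lay above the control arrays in each genotype, and the control arrays were more spread than the alkali arrays. The group means were 8.27 ± 0.10 in K83 alkali, 6.85 ± 0.33 in K83 control, 8.14 ± 0.19 in Jijing88 alkali and 7.35 ± 0.30 in Jijing88 control (SD, n = 3). The ranges of both alkali groups overlapped, as did those of both control groups, so that neither neighbouring pair was separated on every array.

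In Jijing88, whose arrays had no part in the choice of PHR3, the gene rose by 0.79 on the log2 scale or 1.73-fold (standard error 0.17, limma adjusted p = 0.0118). With the Jijing88 arrays fitted alone, the limma adjusted p was 0.0265. Over all genes, 8.22% were called higher under alkali in Jijing88, 7.35% lower and 15.6% in either direction. Without Jijing88 control replicate 2, the lowest of its group, the difference was 0.64 and did not pass (limma adjusted p = 0.0625). Without Jijing88 alkali replicate 1 or replicate 3, the arrays with a high 25S signal, it was 0.72 and 0.89 and passed (limma adjusted p = 0.0465 and 0.0164). In K83, the contrast that chose the gene, the difference was 1.42 with a standard error of 0.17, or 2.67-fold. The K83 response minus the Jijing88 response was 0.63 with a standard error of 0.24, and was not tested for the same reason as for SPX1.

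Between the genotypes the ranges of PHR3 overlapped in both media. The difference, K83 minus Jijing88, was -0.51 in control medium and 0.12 under alkali, each with a standard error of 0.17. These are descriptions with no test, because they contain the K83 arrays that chose PHR3. With any 1 array left out they lay between -0.69 and -0.35 in control medium and between 0.02 and 0.20 under alkali. SPX1 and PHR3 were compared over the arrays with Pearson r, giving 0.48 over the 12 arrays and -0.12 for the deviations from the group means. These are descriptions, since the arrays share the group structure.

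Among named genes, those with a profile most like that of a member were found by Pearson r over the 12 arrays, among 2198 genes above the array median in at least 1 group. For SPX1 they were VIT1, a vacuolar iron transporter (r = 0.91), the cyclin-dependent kinase gene CDKF-3 (r = 0.91), the related gene SPX5 (r = 0.90), GWD3 (r = 0.87) and the actin depolymerising factor gene ADF-5 (r = 0.87). At the other end were GLU10 (r = -0.90), the phytoene synthase gene PSY1 of carotenoid synthesis (r = -0.88) and the potassium transporter gene HAK16 (r = -0.88). For PHR3 they were LOC4344277, annotated as a peroxidase (r = 0.95), the stress-activated protein kinase gene SAPK9 (r = 0.93), the D-type cyclin gene CYCD5-1 (r = 0.92), the phosphate transporter gene PHT1-8 (r = 0.92) and the calmodulin-like gene CML8 (r = 0.92). At the other end were ADF-11 (r = -0.96), the gene listed as Ip with the synonym SDH2-1 (r = -0.94) and ITPase (r = -0.93). For deviations from the group means, r was 0.51 for SPX5 with SPX1 and 0.43 for PHT1-8 with PHR3, while it was 0.84 for CYCD5-1 with PHR3 and -0.61 for ADF-5 with SPX1.

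The SPX family was read in 5 genes, SPX1 to SPX5. Under alkali, 2 of them rose and 1 fell in K83, and 4 rose in Jijing88, where 12.9% of all genes were called in K83 and 15.6% in Jijing88. Without SPX1, 1 rose and 1 fell in K83 and 3 rose in Jijing88, of 4 genes. SPX2, like SPX1 a nuclear inhibitor of PHR2, had a signal of 10.46, 9.93 and 10.15 in K83 alkali, against 9.69, 9.49 and 9.38 in K83 control. In Jijing88 it was 9.98, 10.14 and 9.93 under alkali, against 9.54, 9.28 and 9.67 in control. The alkali arrays were above the control arrays in both, with log2 differences of 0.66 in K83 (limma adjusted p = 0.0136) and 0.52 in Jijing88 (limma adjusted p = 0.0367). Between the genotypes in control medium, K83 minus Jijing88, SPX2 differed by 0.02 with a 95% interval of -0.28 to 0.33 and did not pass (limma adjusted p = 0.946). The responses of SPX2 differed between K83 and Jijing88 by 0.14, with a 95% interval of -0.28 to 0.57. Leaving out 1 array ended the SPX2 call in 3 of 12 fits in K83, with adjusted p up to 0.0567, and in 7 of 12 in Jijing88, with adjusted p up to 0.167.

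SPX3, another phosphate starvation gene of the family, moved in opposite directions. Its signal was 6.73, 6.64 and 6.68 in K83 alkali, against 7.58, 7.42 and 7.01 in K83 control, a fall by 0.66 (limma adjusted p = 0.0289). In Jijing88 it was 5.69, 6.19 and 5.81 under alkali, against 5.09, 5.55 and 5.19 in control, a rise by 0.61 (limma adjusted p = 0.0331). The difference between these responses was -1.27, with a 95% interval of -1.77 to -0.78, and passed (limma adjusted p = 0.0305), as did 1.03% of all genes, 0.341% with a more positive and 0.693% with a more negative response in K83. Over all probe sets that split was 153 more positive against 207 more negative, and 110 against 304 with the array medians set equal. Over the 12 fits that left out 1 array the SPX3 difference lay between -1.44 and -1.13, with adjusted p up to 0.0833, and it did not pass in 7 of them. The arrays left out in those 7 were all 3 of K83 alkali, K83 control replicates 1 and 2, Jijing88 alkali replicate 3 and Jijing88 control replicate 1. The response within each genotype was lost in 5 of 12 such fits, with adjusted p up to 0.110 in K83 and 0.123 in Jijing88. SPX3 was also the list gene that differed most between the genotypes in control medium, at 2.06 on the log2 scale (limma adjusted p = 2.38e-06), and by 0.79 under alkali (limma adjusted p = 0.00501).

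SPX4, which holds PHR2 in the cytosol, had differences of 0.33 in K83 (limma adjusted p = 0.127) and 0.31 in Jijing88 (limma adjusted p = 0.135), neither past the threshold. Its further probe set was called in Jijing88, at 1.09 (limma adjusted p = 0.0188), and not in K83, at 0.55 (limma adjusted p = 0.260). SPX5 rose in Jijing88 by 0.995 (limma adjusted p = 0.0264), a size that is not firm because its control mean of 5.04 was close to background, and a call lost in 5 of 12 fits without 1 array, with adjusted p up to 0.110. Its K83 difference of 0.82 did not pass (limma adjusted p = 0.0737), with arrays at 7.11, 5.85 and 6.77 under alkali and at 6.14, 5.65 and 5.47 in control. The other SPX5 probe set was close to background except in K83 alkali, so no sizes are given. It was called higher under alkali in Jijing88 (limma adjusted p = 0.0372) and not in K83 (limma adjusted p = 0.200). In control medium it was called higher in K83 than in Jijing88 (limma adjusted p = 0.0304). The leading probe sets of SPX4 and SPX5 are of a kind that can also bind related transcripts. Of the other PHR genes, PHR1 and PHR2, the central activator of the starvation response in rice, neither was called by limma from its brighter probe set in the 4 comparisons. At an unadjusted p under 0.05, only PHR2 passed, in Jijing88 under alkali. The alkali differences of PHR1 were -0.09 in K83 and 0.09 in Jijing88, and those of PHR2 were -0.11 in K83 and -0.22 in Jijing88. The second probe set of PHR2 was called lower in K83, at -0.34 (limma adjusted p = 0.0470).

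**Figure D2:**
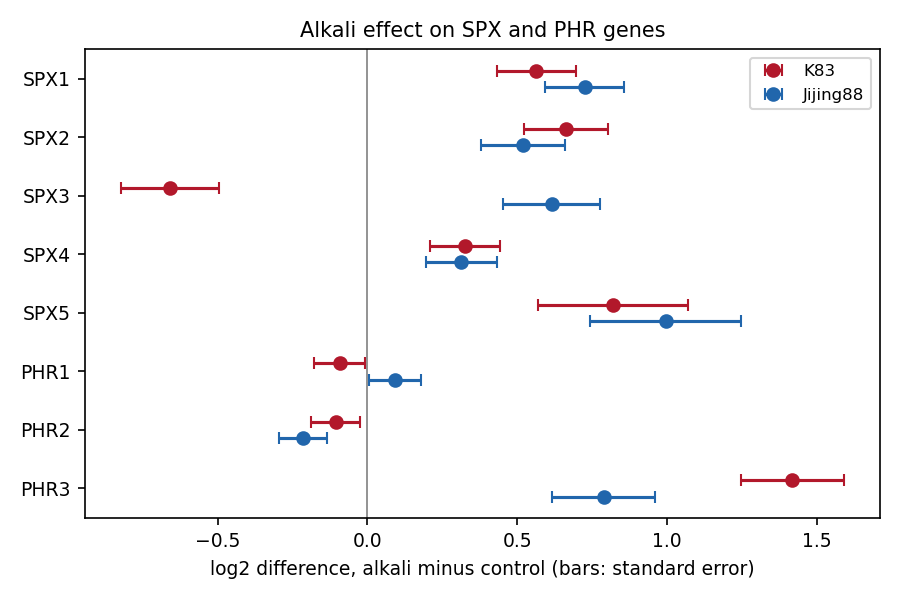
Log2 difference between alkali and control for 5 SPX and 3 PHR genes in K83 and Jijing88, with bars of 1 standard error from the fit over all 12 arrays. SPX3 lies at -0.66 in K83 and 0.61 in Jijing88, while SPX1, SPX2, SPX4, SPX5 and PHR3 are positive in both.

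A list of 38 phosphate genes put SPX1 and PHR3 in context. In K83 7 of the 38 were called higher and 3 lower under alkali, and the same counts were found in Jijing88. Without SPX1 and PHR3 they were 5 higher and 3 lower of 36 in each genotype, or 22.2%, beside 12.9% of all genes in K83 and 15.6% in Jijing88. All genes include dim ones, and the list held 5 genes close to background in every group. With such probe sets left out, 4816 of 30030 probe sets were called in K83 and 5584 in Jijing88. The median difference of those 36 genes was -0.02 in K83 and 0.05 in Jijing88, beside -0.04 and -0.01 over all genes. Over all 38 genes, SPX1 and PHR3 included, 10 were called in each genotype. These counts depend on single arrays. In K83 the count fell to 4 without alkali replicate 1, 6 without alkali replicate 3 or control replicate 1, and 5 without control replicate 2. In Jijing88 it fell to 6 without alkali replicate 2 or control replicate 1, and to 5 without control replicate 2. The calls over all probe sets fell in the same fits. In K83 they fell from 3700 to 2210, 1831, 2457 and 1721 without alkali replicates 1 and 3 and control replicates 1 and 2. In Jijing88 they fell from 4789 to 4095, 3659 and 2666 without alkali replicate 2 and control replicates 1 and 2. Of the 10 genes called in each genotype, 7 were shared, 6 in the same direction and SPX3 in the opposite one. Without SPX1 and PHR3, 5 of 8 were shared, or 62.5% of each set. Over all genes the shared calls were 46.2% of those in K83 and 38.2% of those in Jijing88.

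**Figure D3:**
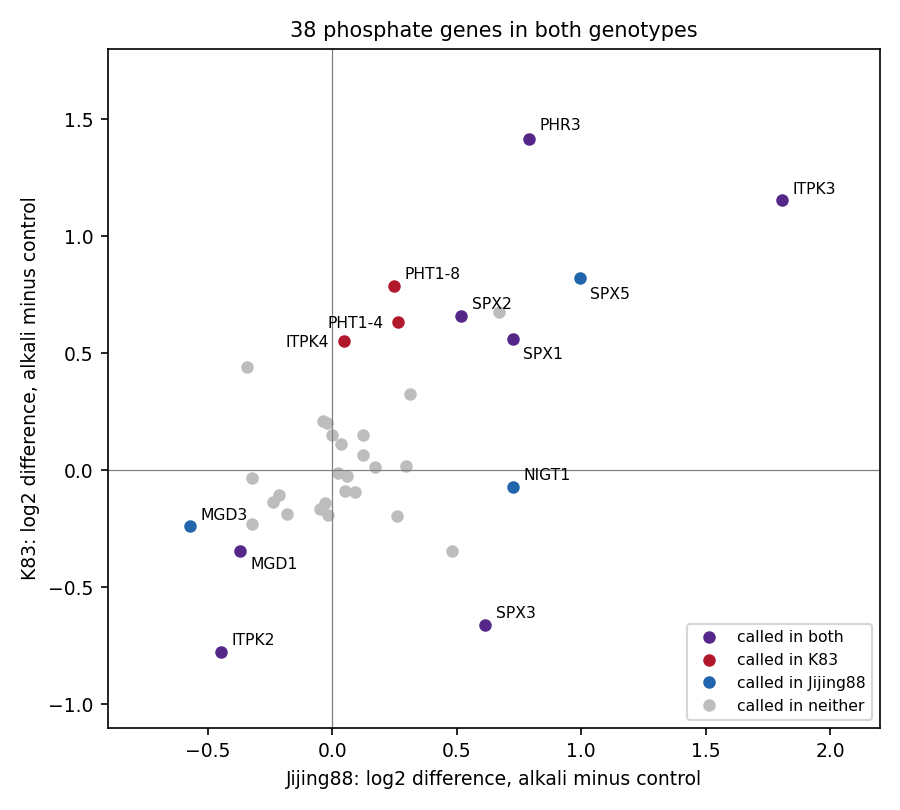
Alkali effect on 38 phosphate genes in K83 (vertical axis) against Jijing88 (horizontal axis), both as log2 differences, coloured by the limma call at an adjusted p of 0.05. PHR3 is the highest point in K83 at 1.42, ITPK3 is the farthest right in Jijing88 at 1.81, and SPX3 lies on opposite sides of 0.

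Among the targets of this pathway, the PHT1 transporters take up phosphate at the plasma membrane. Of 9 measured genes 2 rose in K83 under alkali and 0 were called by limma in Jijing88, where 3 had an unadjusted p under 0.05. Of all genes, 5.04% were called higher in K83 and 15.6% were called in either direction in Jijing88. PHT1-8 had 8.84, 8.59 and 8.79 in K83 alkali, against 8.08, 7.81 and 7.95 in K83 control, a rise by 0.79 (limma adjusted p = 0.000752), and a further probe set gave 0.88. The remaining probe set of PHT1-8, close to background, gave 0.25 without passing. In Jijing88 its difference was 0.25 (limma adjusted p = 0.197), and the difference between the responses, 0.54, did not pass (limma adjusted p = 0.125). PHT1-4 rose in K83 by 0.64 (limma adjusted p = 0.0482), a call lost in 8 of the 12 fits without 1 array, with adjusted p up to 0.155. Both read from probe sets that can also bind related transcripts. The PHT1-1 probe sets disagreed. The brighter one was at 0.68 in K83 and 0.67 in Jijing88 without passing, and the other was called lower in both, at -0.62 in K83 (limma adjusted p = 0.0136) and -0.57 in Jijing88 (limma adjusted p = 0.0152). Of the 9 genes, 4 were close to background in every group.

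Of 14 further regulators, inositol phosphate genes among them, 2 were called higher and 1 lower under alkali in each genotype. Of 3 lipid genes 1 was lower in K83 and 2 in Jijing88. Of all genes 12.9% were called in K83 and 15.6% in Jijing88. The inositol phosphate kinase gene ITPK3 had 9.80, 10.63 and 10.25 in K83 alkali, against 8.91, 9.02 and 9.28 in K83 control, and 10.40, 11.07 and 11.06 in Jijing88 alkali, against 9.17, 8.97 and 8.97 in Jijing88 control. It rose by 1.15 in K83 (limma adjusted p = 0.00473) and 1.81 in Jijing88 (limma adjusted p = 0.000156), from the brighter of 2 probe sets, the other being close to background and not called. Its relative ITPK2 fell, by 0.77 in K83 (limma adjusted p = 0.000274) and 0.45 in Jijing88 (limma adjusted p = 0.00682). The related gene ITPK4 was called in K83 while close to background in all groups, so no fold is given. IPK1, IPK2, ITPK1, ITPK5, Lpa1 and MRP5, also of inositol phosphate metabolism or transport, were not called under alkali in either genotype, nor was the lipid gene MGD2. Of the monogalactosyldiacylglycerol synthase genes, which make galactolipids, MGD1 fell in both genotypes (-0.34, limma adjusted p = 0.0262 in K83, and -0.37, limma adjusted p = 0.0134 in Jijing88), calls lost in 5 of 12 fits without 1 array in K83 and in 2 in Jijing88. MGD3 was lower in Jijing88 (-0.57, limma adjusted p = 0.00230), with -0.24 in K83 (limma adjusted p = 0.174). NIGT1, a nitrate-inducible repressor gene, rose in Jijing88 by 0.73 (limma adjusted p = 0.0167, up to 0.0658 in the 4 of 12 fits without 1 array that lost the call), with -0.07 in K83 (limma adjusted p = 0.875). The phosphate exporter gene PHO1-2 and its relative PHO1-3, and the SUMO ligase genes SIZ1 and SIZ2, had no limma call under alkali in either genotype. At an unadjusted p under 0.05, 2 of these 4 passed in K83 and 2 in Jijing88.

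Other genes of the list differed in signal between the genotypes in both directions. Whether their probe sets read both genotypes alike was not tested. Without SPX1 and PHR3, 4 of 36 genes were called higher in K83 and 8 lower in control medium, or 33.3%, where 11.3% of all genes were called higher in K83, 9.58% lower and 20.9% in either direction. Under alkali 7 of the 36 were higher and 6 lower, or 36.1%, where 11.5% of all genes were higher in K83, 13.2% lower and 24.7% in either direction. With probe sets close to background in every group left out, 7459 of 30030 were called in control medium and 8702 under alkali. The largest differences in control medium, beside that of SPX3, were those of NIGT1, at 7.66, 7.75 and 7.53 in K83 control against 6.03, 5.85 and 5.66 in Jijing88 control, and MGD2, at 7.62, 7.55 and 7.10 against 5.70, 5.31 and 5.90. The differences were 1.797 (limma adjusted p = 1.17e-05) and 1.79 (limma adjusted p = 1.12e-05). Under alkali they were 1.003 and 0.96 (limma adjusted p = 0.00123 and 0.00157), and the change of the gap with alkali did not pass for either gene (limma adjusted p = 0.155 and 0.137). The calls of NIGT1 and MGD2 between the genotypes held when any 1 array was left out. The count over all 38 genes in control medium was 13 and fell to 8 without K83 control replicate 2. In that fit the calls over all probe sets fell from 6658 to 4551.

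**Figure D4:**
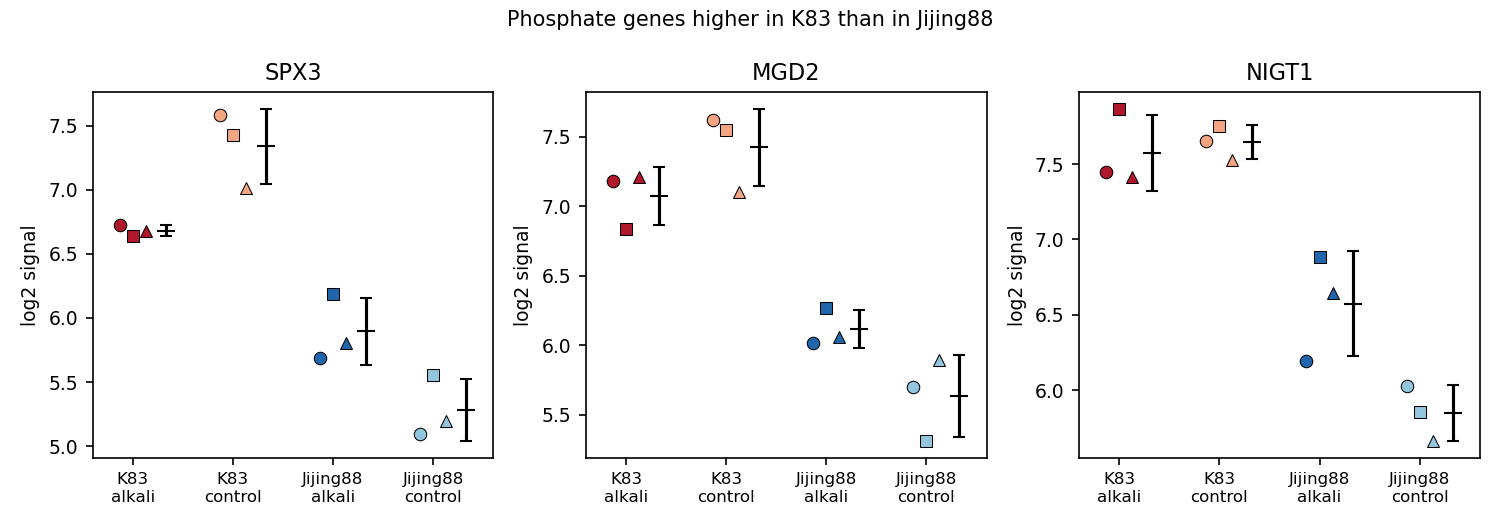
Log2 signal of SPX3, MGD2 and NIGT1 on each array (circle, square and triangle for replicates 1, 2 and 3) with the group mean and SD (n = 3). Every K83 array is above every Jijing88 array of the same medium, and SPX3 in K83 control, at 7.01 to 7.58, is the highest group of its panel.

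Lower in K83 control were 4 of the 9 PHT1 genes, where 9.58% of all genes were called lower, among them PHT1-4 at -1.06 (limma adjusted p = 0.00126), PHT1-1 at -0.87 (limma adjusted p = 0.0271) and PHT1-12 at -0.48 (limma adjusted p = 0.0298). The size of the PHT1-12 difference is not firm, since its K83 control mean of 5.07 was close to background. PHT1-4 and PHT1-1 stayed lower under alkali, at -0.69 (limma adjusted p = 0.0180) and -0.86 (limma adjusted p = 0.0241), and the second PHT1-1 probe set was not called in either medium. Leaving out 1 array ended the call of PHT1-12 in 4 of 12 fits, those of PHT1-1 in 3 in control medium and 4 under alkali, and that of PHT1-4 under alkali in 4. PHT1-8 was lower in K83 control (-0.43, limma adjusted p = 0.0174) and at 0.12 under alkali (limma adjusted p = 0.561), and its call in control medium was lost in 3 of 12 such fits. Of the exporter genes, PHO1-2 was lower in K83 under alkali (-0.72, limma adjusted p = 0.00125) and PHO1-3 higher (0.80, limma adjusted p = 0.00110). The further PHO1-2 probe sets, both above background, gave -0.09 (limma adjusted p = 0.611) and 0.14 (limma adjusted p = 0.434) and were not called. The auxin response factor gene ARF1, listed also as ARF16, was lower in K83 in both media (-0.92 and -0.83). Another list gene, itself named ARF16, was not called, at 0.17 in control medium (limma adjusted p = 0.265) and 0.20 under alkali (limma adjusted p = 0.168). ART1 was also lower in K83 in both media (-0.68 and -0.96). It is a regulator known for aluminium tolerance that the list also held, and its second probe set was not called. SIZ1 was lower in K83 control by a small amount (-0.30, limma adjusted p = 0.0176), a call lost in 2 of 12 such fits.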

How the data were processed

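The authors deposited a single table of log2 signal by probe set and array. RMA and limma are named, without version or role, per the submitters' processing notes. The log2 scale was read from the values, and versions of the authors' tools are not given in the sources used here. Values were used as deposited. From 57381 probe sets the 123 controls were removed. Differences were tested with limma (version 3.58.1, under R 4.3.3), fitting 4 group means over all 12 arrays (8 residual degrees of freedom), two-sided, with Benjamini-Hochberg adjustment over 57258 probe sets and a threshold of 0.05. Standard errors and intervals are limma's. The fit was also run on simulated arrays with independent normal noise, which cannot show effects of dependent pools or of array quality.

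Probe sets were named from the array's annotation, with synonyms taken from RefSeq's rice genes (ASM3414082v1). Of 57258 probe sets, 22436 had 1 gene and 95 several. All 17905 genes matched, and the probe set with the highest mean stood for each gene. Coordinates are not given because the array's build is not given in the sources used here, and no sequence table was used.

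Genotype differences of SPX1 and PHR3 were planned as tests and are given without p-values, since they share arrays with the choice of these genes. The members, gene lists and named-gene rule were chosen with earlier results of these data known. The phosphate list was matched by name, so unnamed genes are missing from it, and 2 matches to genes of another kind were taken out. Named genes are the SPX and PHR families and, for each other role, up to 3 called genes with the largest difference per comparison, or the one with the smallest p. Alternatives were array medians set equal, limma with trend and robust variances, fits of the compared groups alone, no dim probe sets, another probe set per gene, a replicate block, and leaving out each array.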

Additional observations from a re-analysis of the deposited data

Results flagged for a closer look

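SPX3 stood out because its response differed between the genotypes by limma's test of that difference. The K83 response minus the Jijing88 response was -1.27 on the log2 scale (limma adjusted p = 0.0305), with each of the 3 alkali arrays below the control arrays in K83 and above them in Jijing88. The test did not pass in 7 of the 12 fits that left out 1 array.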

How the results depend on the processing

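Values for SPX1 and PHR3 and the counts over the phosphate list kept their direction and, where tested, their side of the threshold, and the counts stayed within 1.5 times, under equal array medians, trend and robust variances, fits of the compared groups alone, removal of dim probe sets and, for the list, another probe set per gene. Over these and the replicate block, the limma adjusted p was 0.00848 to 0.0371 for SPX1 under alkali in K83 and 0.00637 to 0.0265 for PHR3 under alkali in Jijing88. Same-numbered arrays of different groups deviated together (r over 0.1) in 7 of 18 pairs, with r from -0.08 to 0.22. Arrays with different numbers were not compared, so whether the numbers pair the samples was not tested. With the replicate block the adjusted p was 0.0371 for SPX1 in K83 and 0.0141 for PHR3 in Jijing88, and 11 list genes were called under alkali in each genotype. Without 1 array, the SPX1 difference was 0.47 to 0.65 in K83, the PHR3 difference 0.64 to 0.94 in Jijing88, the SPX1 genotype difference under alkali 0.39 to 0.61 and the PHR3 genotype difference in control -0.69 to -0.35. The list counts were then 4 to 11 under alkali in K83, 5 to 12 in Jijing88, 8 to 14 between genotypes in control, and 0 to 1 for the difference between responses. In the same order, the calls over all probe sets were 1721 to 4693, 2666 to 5463, 4551 to 6764 and 107 to 646. Over all probe sets, 4789 were called under alkali in Jijing88, and 2768 when its groups were fitted alone. For the difference between responses 360 were called, 656 with trend and robust variances and 633 without dim probe sets. Of the other named genes, fits of the compared groups alone ended the calls of SPX3, NIGT1 and MGD1 in Jijing88, of ITPK4, and of PHT1-1 and SIZ1 between genotypes in control. Equal medians ended that of PHT1-4 in K83, the replicate block those of PHT1-4 in K83 and ITPK4 between genotypes under alkali, and trend with robust variances those of PHT1-1 between genotypes. Calls of SPX4 or SPX5 were gained under each of these settings except equal medians, and SPX4 also without dim probe sets. SPX1 and PHR3 have 1 probe set each, so no further probe set gave a value, and the promoter motif was not searched. Signal close to background limits SPX5, ITPK4, PHT1-12 and the 4 PHT1 genes that were dim in every group. The SPX3 mean in Jijing88 control, 5.28, lay just above that level.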
